A study of Homo sapiens with 40 samples.

Results

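The EGR genes EGR1, EGR2, EGR3 and EGR4 encode zinc finger transcription factors, and NAB1 and NAB2 encode corepressors that bind EGR proteins. They were taken from the count table by exact gene name, and all 6 were found among its 44584 names. RNA sequencing was performed in BT474 cells, an established line of HER2-positive breast cancer whose growth the HER2 antibody trastuzumab limits, and in BT474R, a single clone obtained from BT474 cells grown with trastuzumab. Both lines were starved of serum and then sampled directly (T0) or given fresh starvation medium with EGF, heregulin (HRG) or water as the vehicle, and sampled after 1, 12 or 24 h. The starvation is thus common to all samples. The 20 groups of line, treatment and time point held 2 libraries each, 40 in all, and libraries are named by their replicate number. The study's methods describe each treatment as done in duplicate and do not state whether the duplicates came from separate days or passages, so the p-values measure the spread between these duplicates.

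BT474 libraries held between 19200632 and 29098915 counts and BT474R libraries between 16794594 and 33387936. Levels are in CPM, counts per 1000000 counts, scaled with TMM factors over all 40 libraries. A level of 3 counts per library, taken as the limit of detection, corresponded to between 0.0929 and 0.180 CPM, and this limit and the ratio intervals below cover counting error only. All 8 markers of luminal HER2-positive epithelium were above that limit in every library, with ERBB2 between 5994 and 10546 CPM. GATA3 varied far more, between 10.6 and 546 CPM. Of the 9 markers of other cells, CD3E had 0 counts in 38 libraries, PDGFRB in 34, PTPRC in 26, COL1A2 in 23, PECAM1 in 15 and COL3A1 in 1. The other 3 were above the limit in every library, with COL1A1 between 75.04 and 294.6 CPM, VWF between 8.61 and 22.99 CPM and CD68 between 1.06 and 5.09 CPM, and their part in the results was not tested. In bulk RNA, fewer cells of a kind and less RNA per cell cannot be told apart.

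EGR genes belong to the immediate early genes, which are transcribed within minutes of a growth factor signal without new protein synthesis. EGF binds EGFR and HRG binds HER3 and HER4, all of which can pair with HER2 and drive the RAS, RAF, MEK and ERK kinases. ERK phosphorylates ternary complex factors such as ELK1, which bind DNA with the serum response factor SRF at CArG boxes, and kinases below ERK phosphorylate CREB, which binds cAMP response elements (CRE). The EGR proteins bind GC-rich sites, and NAB proteins limit what EGR1, EGR2 and EGR3 activate. NAB2 is itself described as an EGR target, so that it acts as a brake that follows EGR induction.

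The sequence upstream of the transcript start is shown for 4 members because these bases hold the motifs through which ERK signals and EGR proteins are known to act. RefSeq's promoter table, on GRCh38.p14, matched 5 of the 6 members with 9 windows, and the 250 bases upstream of each start were searched on both strands. Capitals mark CArG boxes, CRE motifs spelled TGACG or its reverse complement, and EGR sites spelled GCGNGGGCG or its reverse complement. Sequences are written 5′ to 3′ on the strand of the gene. The EGR1 stretch is chr5:138465229-138465478, plus strand, and ends at the base before the start.
EGR1: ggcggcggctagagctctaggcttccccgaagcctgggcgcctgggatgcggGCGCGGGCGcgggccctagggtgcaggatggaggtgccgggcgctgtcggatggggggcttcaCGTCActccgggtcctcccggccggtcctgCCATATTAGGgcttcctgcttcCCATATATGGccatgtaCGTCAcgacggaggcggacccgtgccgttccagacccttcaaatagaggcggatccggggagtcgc
The EGR2 stretch is chr10:62816374-62816616, minus strand, and belongs to the most downstream of 3 RefSeq starts.
EGR2: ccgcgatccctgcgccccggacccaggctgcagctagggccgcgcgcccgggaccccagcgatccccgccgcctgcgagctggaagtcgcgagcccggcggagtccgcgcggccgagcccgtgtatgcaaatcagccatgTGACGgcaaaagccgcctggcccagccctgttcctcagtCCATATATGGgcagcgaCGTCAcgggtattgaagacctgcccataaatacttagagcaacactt
The EGR4 stretch is chr2:73293702-73293798, minus strand.
EGR4: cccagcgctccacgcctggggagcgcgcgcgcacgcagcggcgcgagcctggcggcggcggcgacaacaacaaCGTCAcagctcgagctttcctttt
The NAB2 stretch of 29 bases is chr12:57089042-57089070, plus strand, and surrounds the EGR site, which lies in an exon of another annotated NAB2 transcript.
NAB2: tgtgcgtcctGCGGGGGCGgaggcgcgga
The first 3 stretches lie outside the exons that GENCODE v44 annotates for these genes.

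EGR1 held 2 CArG boxes, at positions -105 to -96 and -83 to -74 from the start, with 2 CRE motifs and 1 EGR site. The shown EGR2 window held 1 CArG box, at -71 to -62, and 2 CRE motifs, and the 2 windows of the upstream EGR2 starts held none of these motifs. EGR4 held 2 CRE motifs, of which the one at -177 to -173 is shown, and no CArG box. NAB2 held 1 EGR site at -62 to -54. The 3 NAB1 windows held 2, 3 and 0 EGR sites, of which the ones at -42 to -34 and -36 to -28 of the first window overlap each other, as does the same pair seen again in the second window, and 0, 1 and 1 CRE motifs. Of all 35116 windows of this length in the table, 1.16% held a CArG box, 21.2% a CRE motif and 8.41% an EGR site. No other 2 motifs overlapped, and a match describes the letters only.

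**Figure D1:**
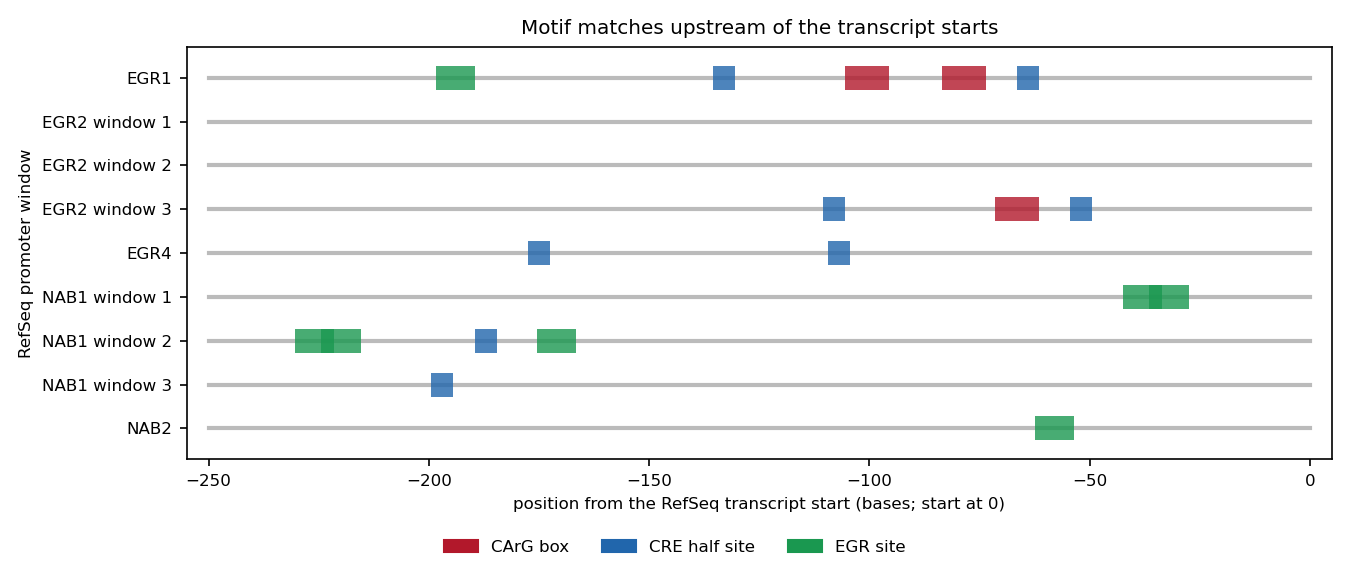
Places of motif matches in the 250 bases upstream of each RefSeq transcript start of 5 genes (x axis, bases from the start; y axis, window). Red bars are CArG boxes, blue bars CRE motifs and green bars EGR sites, and CArG boxes appear only in the EGR1 window and 1 of the 3 EGR2 windows.

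At 1 h, EGF and HRG raised all 4 EGR genes in both lines, by 5.72-fold to 114-fold. In BT474 the 2 ligands also raised NAB2, and in BT474R EGF did, whereas NAB1 passed the test in none of the 12 comparisons of a ligand with its vehicle. With EGF in BT474, 5 of the 6 members were called higher (edgeR's quasi-likelihood test, Benjamini-Hochberg adjusted p under 0.05), against 1.65% of all genes tested. With HRG in BT474 the count was also 5, against 2.16%. In BT474R it was 5 with EGF, against 0.416%, and 4 with HRG, against 0.169%. EGF and HRG were compared with the same vehicle libraries at each time point and line.

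EGR1, the founding member of the family, was at 78.3 and 81.8 CPM in the 2 BT474 vehicle libraries at 1 h, at 1087 and 1106 CPM with EGF and at 1354 and 1295 CPM with HRG. All 4 ligand libraries lay far above both vehicle libraries. The log2 fold change was 3.75 (SE 0.060, adjusted p = 1.16e-34) with EGF and 4.04 (SE 0.061, adjusted p = 1.16e-35) with HRG. In BT474R, EGR1 was at 22.7 and 18.3 CPM in vehicle, at 269 and 288 CPM with EGF and at 191 and 141 CPM with HRG. Again no ligand library overlapped the vehicle, although the levels were several times lower than in BT474. The log2 fold changes were 3.77 (SE 0.135, adjusted p = 9.95e-14) and 3.03 (SE 0.13, adjusted p = 6.55e-12).

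EGR2, known for its role in the myelination of peripheral nerves, changed most of the 4, and in all 4 comparisons no tested gene had a larger log2 fold change. It was at 3.07 and 2.56 CPM in BT474 vehicle at 1 h, at 114 and 126 CPM with EGF and at 201 and 186 CPM with HRG. The log2 fold changes were 5.40 (SE 0.11, adjusted p = 1.51e-30) and 6.09 (SE 0.11, adjusted p = 7.96e-33). In BT474R, EGR2 was almost silent in vehicle, with 6 and 2 counts (0.254 and 0.0619 CPM), and reached 15.6 and 18.4 CPM with EGF and 16.8 and 9.65 CPM with HRG. The folds of 114 and 89.6 (log2 6.84, SE 0.36, and 6.48, SE 0.37) thus rest on 8 vehicle counts. The adjusted p were 9.38e-11 and 6.23e-10.

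EGR3, a close relative of EGR1 with a similar DNA binding domain, was at 24.86 and 20.005 CPM in BT474 vehicle at 1 h, at 241 and 282 CPM with EGF and at 402 and 377 CPM with HRG. In BT474R it was at 0.930 and 1.24 CPM in vehicle, at 28.96 and 43.41 CPM with EGF and at 36.1 and 21.6 CPM with HRG. The ligand libraries lay above the vehicle libraries in both lines. Its log2 fold changes were 3.52 (SE 0.077) and 4.11 (SE 0.078) in BT474, and 5.03 (SE 0.29) and 4.71 (SE 0.29) in BT474R, with adjusted p of at most 3.98e-09.

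EGR4, the member described mainly in neurons, had the lowest level of the 4 with either ligand at 1 h in both lines. It was at 2.29 and 1.68 CPM in BT474 vehicle at 1 h, at 26.2 and 28.8 CPM with EGF and at 44.6 and 43.8 CPM with HRG. In BT474R it was at 1.14 and 1.33 CPM in vehicle, at 7.19 and 9.67 CPM with EGF and at 8.46 and 5.75 CPM with HRG. The groups did not overlap. The log2 fold changes were 3.77 (SE 0.16) and 4.47 (SE 0.15) in BT474, and 2.75 (SE 0.26) and 2.52 (SE 0.27) in BT474R, with adjusted p of at most 2.51e-05.

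Per kilobase of the MANE Select transcript, which corrects for transcript lengths between 2220 bases (EGR4) and 4514 bases (EGR3), EGR1 was the most abundant EGR gene in all 20 groups. With HRG at 1 h in BT474, the levels per kilobase were 422 CPM for EGR1, 86.4 CPM for EGR3, 64.9 CPM for EGR2 and 19.9 CPM for EGR4. With EGF at 1 h in BT474R they were 88.8, 8.02, 5.70 and 3.797 CPM, in the same order of genes. NAB2 exceeded NAB1 per kilobase in all 20 groups, by 2.23-fold to 9.87-fold.

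NAB2, the corepressor described as induced with the EGR genes, was at 23.8 and 20.2 CPM in BT474 vehicle at 1 h, at 33.0 and 34.0 CPM with EGF and at 37.4 and 39.3 CPM with HRG. In BT474R it was at 12.6 and 10.7 CPM in vehicle, at 17.9 and 20.4 CPM with EGF and at 19.1 and 14.8 CPM with HRG. In each case both ligand libraries lay above both vehicle libraries. Its log2 fold changes were 0.59 (SE 0.087, adjusted p = 8.29e-06) and 0.80 (SE 0.088, adjusted p = 1.32e-08) in BT474, and 0.73 (SE 0.12, adjusted p = 0.00177) with EGF in BT474R. With HRG in BT474R the log2 fold change of 0.56 (SE 0.12) missed the threshold (adjusted p = 0.0628), but it passed with DESeq2 (adjusted p = 0.0326), in 1 fit of both lines (0.0168), without a filter (0.000109), in a fit of the compared libraries alone (0.00144), with the replicate number as a block (0.0284) and without HRG library 2 (0.00623). The call with EGF in BT474R was lost without EGF library 2 (log2 fold change 0.65, adjusted p = 0.0753) or vehicle library 2 (0.61, adjusted p = 0.125). NAB2 ends in STAT6, a gene on the other strand, with 69 bases of shared exon (chr12:57095408-57095476), and since the strand setting of the counting is not stated, reads there cannot be told apart. EGR3 and NAB1 likewise share exon bases with unnamed genes on the other strand, and EGR2 with 1 on its own strand, whereas EGR1 and EGR4 share none.

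NAB1, the other corepressor, stayed between 5.86 and 10.4 CPM in the 20 BT474 libraries. At 1 h its log2 fold changes with a ligand were between -0.09 and 0.14 in the 4 comparisons, with SE of at most 0.13. The largest value at any time point was 0.31 (SE 0.11), with EGF at 24 h in BT474R, where the libraries were at 16.3 and 18.3 CPM against 13.3 and 14.6 CPM in vehicle. The groups did not overlap, but the adjusted p was 0.0563, and it fell to 0.0257 in 1 fit of both lines, to 0.0458 with edgeR's filterByExpr and to 0.0491 with DESeq2's size factors in edgeR.

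**Figure D2:**
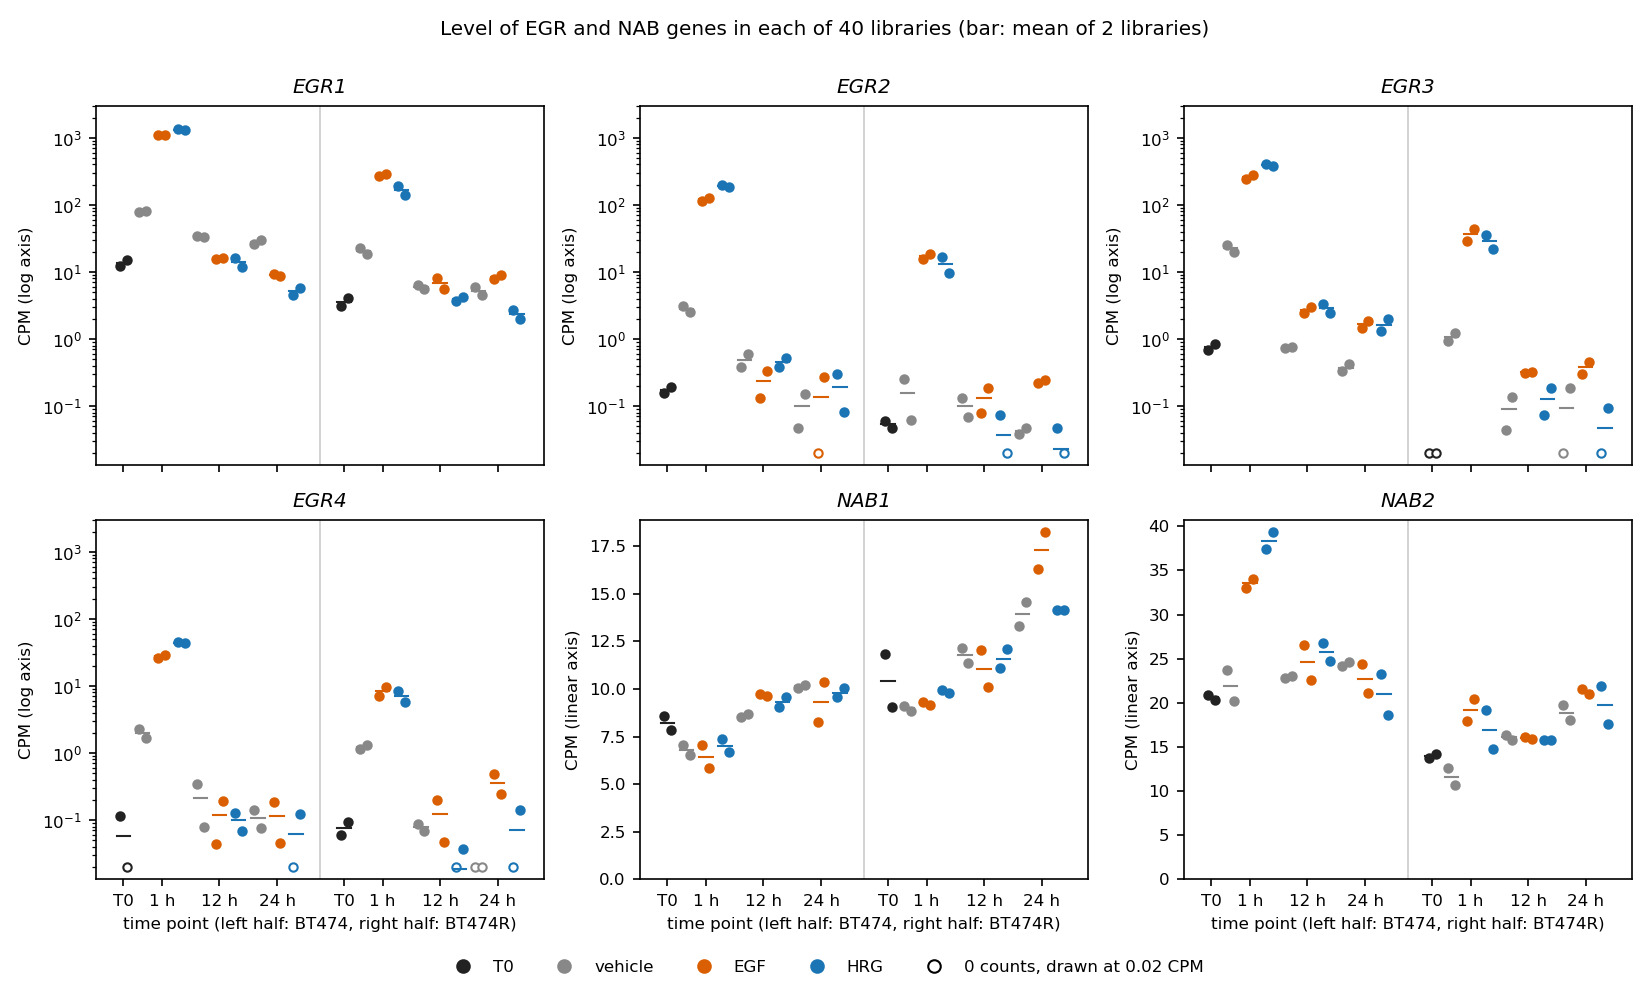
Level of each gene in every library, in CPM (y axis; log axis for the EGR genes, linear axis for NAB1 and NAB2), by line and time point (x axis), with T0 in black, vehicle in grey, EGF in orange and HRG in blue. Each point is 1 library, a bar is the mean of 2, and open points are libraries with 0 counts; the EGR genes are highest at 1 h with both ligands, at lower levels in BT474R than in BT474.

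HRG and EGF were then compared directly. The study's methods give a lower concentration in ng/mL for HRG than for EGF, so ligand and dose cannot be told apart in these comparisons. In BT474 at 1 h, HRG gave higher levels than EGF for EGR1 (log2 difference 0.28, SE 0.051, adjusted p = 0.00318), EGR2 (0.70, SE 0.067, adjusted p = 2.55e-08), EGR3 (0.59, SE 0.061, adjusted p = 7.02e-08) and EGR4 (0.70, SE 0.098, adjusted p = 4.38e-05). Thus 4 of the 6 members were called, against 0.139% of all genes tested, and both HRG libraries lay above both EGF libraries for each of them. The number of calls depended on the estimate of the spread, being 1 of 6 in a fit of both lines and 0 of 6 in a fit of the 4 libraries alone. EGR1 also lost its call with DESeq2, without EGF library 1 (adjusted p = 0.204) and without HRG library 1 (adjusted p = 0.269).

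In BT474R at 1 h the difference went the other way for EGR1, which was lower with HRG than with EGF by a log2 of 0.74 (-0.74, SE 0.12, adjusted p = 0.00786). It was the only member called, 1 of 6 against 0.0494% of all genes tested. The call was lost without EGF library 1 (adjusted p = 0.0792), EGF library 2 (0.31) or HRG library 2 (0.421), and with DESeq2 (0.54). For EGR2, EGR3 and EGR4 the values were -0.35 (SE 0.19), -0.32 (SE 0.19) and -0.24 (SE 0.21), and the libraries of the ligands overlapped.

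At 12 h, edgeR and DESeq2 each called 0 of 6 members between HRG and EGF in either line, against edgeR's 2.17% of all genes tested in BT474 and 1.42% in BT474R. At an unadjusted p under 0.05 edgeR gave 0 members in BT474 and 1 in BT474R, EGR1, with -0.82 (SE 0.22, adjusted p = 0.0764). Without EGF library 2 of BT474R that difference was called (adjusted p = 0.0378), as was the EGR1 difference in BT474 without HRG library 1 (-0.42, adjusted p = 0.036, against -0.20 with all libraries).

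At 24 h EGR1 was lower with HRG than with EGF in both lines. In BT474 it was at 9.32 and 8.74 CPM with EGF and at 4.51 and 5.86 CPM with HRG (log2 difference -0.83, SE 0.13, adjusted p = 0.000325). It was the only member called, 1 of 6 against 0.768% of all genes tested. In BT474R it was at 7.94 and 9.11 CPM with EGF and at 2.75 and 1.97 CPM with HRG (-1.84, SE 0.25, adjusted p = 3.48e-05), again the only one called, against 5.18%. In neither line did the libraries overlap. The call in BT474 was lost in 1 fit of both lines (adjusted p = 0.0613), and that in BT474R in a fit of the 4 libraries alone (0.166).

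Hours after the peak, EGR1 and EGR3 parted in BT474. With either ligand EGR1 lay below the vehicle and EGR3 above it, while EGR2, EGR4, NAB1 and NAB2 did not pass the test. At 12 h, 1 member was called higher and 1 lower with EGF, against 9.04% and 6.99% of all genes tested, and likewise with HRG, against 13.3% and 12.5%. At 24 h the counts were again 1 and 1, against 9.71% and 6.65% with EGF and 12.5% and 11.6% with HRG. With HRG such counts were near the background, and they show nothing about the members as a set.

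EGR1 was at 33.8 and 33.2 CPM in BT474 vehicle at 12 h, at 15.4 and 15.9 CPM with EGF and at 16.1 and 11.8 CPM with HRG. At 24 h it was at 25.9 and 29.5 CPM in vehicle, at 9.32 and 8.74 CPM with EGF and at 4.51 and 5.86 CPM with HRG. Every ligand library was below every vehicle library of its time point. The log2 fold changes were -1.12 (SE 0.086, adjusted p = 1.16e-12) and -1.31 (SE 0.085, adjusted p = 3.33e-15) at 12 h, and -1.63 (SE 0.097, adjusted p = 7.93e-16) and -2.46 (SE 0.11, adjusted p = 3.43e-20) at 24 h.

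The effect of HRG on EGR1 in BT474 was thus larger at 24 h than at 12 h, by -1.15 on the log2 scale (SE 0.14, adjusted p = 9.58e-07), the only member called of 6, against 2.5% of all genes tested. NAB2 was called as well without HRG library 1 of 24 h (-0.56, adjusted p = 0.00975). For EGF the difference of -0.51 (SE 0.13) missed the threshold (adjusted p = 0.0739), passing it with the replicate number as a block (adjusted p = 0.0479), without a filter (0.000214) and without vehicle library 1 of 24 h (-0.61, adjusted p = 0.0322). No member was called for EGF by edgeR or DESeq2, with 1 at an unadjusted p under 0.05, against 0.517%. In BT474R, edgeR and DESeq2 called 0 of 6 members between 24 h and 12 h, with 2 and 1 at an unadjusted p under 0.05 for EGF and HRG, against 0.185% and 0.0288%.

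EGR3 was at 0.724 and 0.759 CPM in BT474 vehicle at 12 h, at 2.42 and 3.02 CPM with EGF and at 3.32 and 2.47 CPM with HRG. At 24 h it was at 0.329 and 0.417 CPM in vehicle, at 1.45 and 1.86 CPM with EGF and at 1.31 and 1.97 CPM with HRG. These levels are low, resting on 7 to 77 counts per library, but the ligand libraries were above the vehicle in each case. For EGR3 the log2 fold changes were 1.85 (SE 0.30, adjusted p = 1.15e-05) and 1.91 (SE 0.28, adjusted p = 1.28e-06) at 12 h, and 2.09 (SE 0.40, adjusted p = 0.000143) and 2.05 (SE 0.39, adjusted p = 8.83e-05) at 24 h. EGR2 and EGR4 had at most 15 counts in any BT474 library of these time points, so that only large changes could have been detected. NAB2 was at 23.3 and 18.6 CPM with HRG at 24 h against 24.2 and 24.6 CPM in vehicle (-0.23, SE 0.090, adjusted p = 0.0543), and was called with the replicate number as a block (adjusted p = 0.0287), without a filter (0.0338) and without HRG library 1 (-0.42, adjusted p = 0.00239).

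In BT474R at 12 h, 0 of 6 members were called with EGF or HRG by edgeR or DESeq2, against edgeR's 12% and 4.12% of all genes tested. At an unadjusted p under 0.05 there were 0 with EGF and 1 with HRG, EGR1, which was at 3.65 and 4.25 CPM against 6.43 and 5.66 CPM in vehicle (-0.62, SE 0.22, adjusted p = 0.138). At 24 h the ligands moved EGR1 to opposite sides of the vehicle. It was at 5.995 and 4.468 CPM in vehicle, at 7.94 and 9.11 CPM with EGF and at 2.75 and 1.97 CPM with HRG, with no overlap between the groups.

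The log2 fold change of EGR1 at 24 h in BT474R was 0.69 (SE 0.21, adjusted p = 0.0226) with EGF, where 2 members were called higher, against 9.95% of all genes tested. It was -1.15 (SE 0.27, adjusted p = 0.0229) with HRG, where it was the only member called lower, against 0.889%. Both calls were fragile. That with EGF was lost without EGF library 1 (adjusted p = 0.0518), EGF library 2 (0.166) or vehicle library 2 (0.166), and that with HRG without HRG library 2 (0.153) or vehicle library 1 (0.372). The direct comparison of the ligands at this time point, given above, kept its call without each library in turn.

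The other member called with EGF at 24 h in BT474R was EGR4, with 11 and 6 counts against 0 and 0 in vehicle. Taking 3 counts in each vehicle library as the limit, it was at least 2.82-fold higher (adjusted p = 0.00631). The call was lost without EGF library 1 (adjusted p = 0.0571) or vehicle library 1 (0.0649). EGR2 and EGR3 had 5 and 6, and 7 and 11 counts with EGF there, against 1 and 1, and 0 and 4 in vehicle, and were not called. The EGR3 log2 fold change was 2.09 (SE 1.12) there. With EGF at 12 h in BT474R it was 1.68 (SE 1.10), on 8 and 7 counts against 1 and 4. The EGF effect on EGR3 was not called as different between the lines at 12 h or 24 h, and such counts could show only a large difference.

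**Figure D3:**
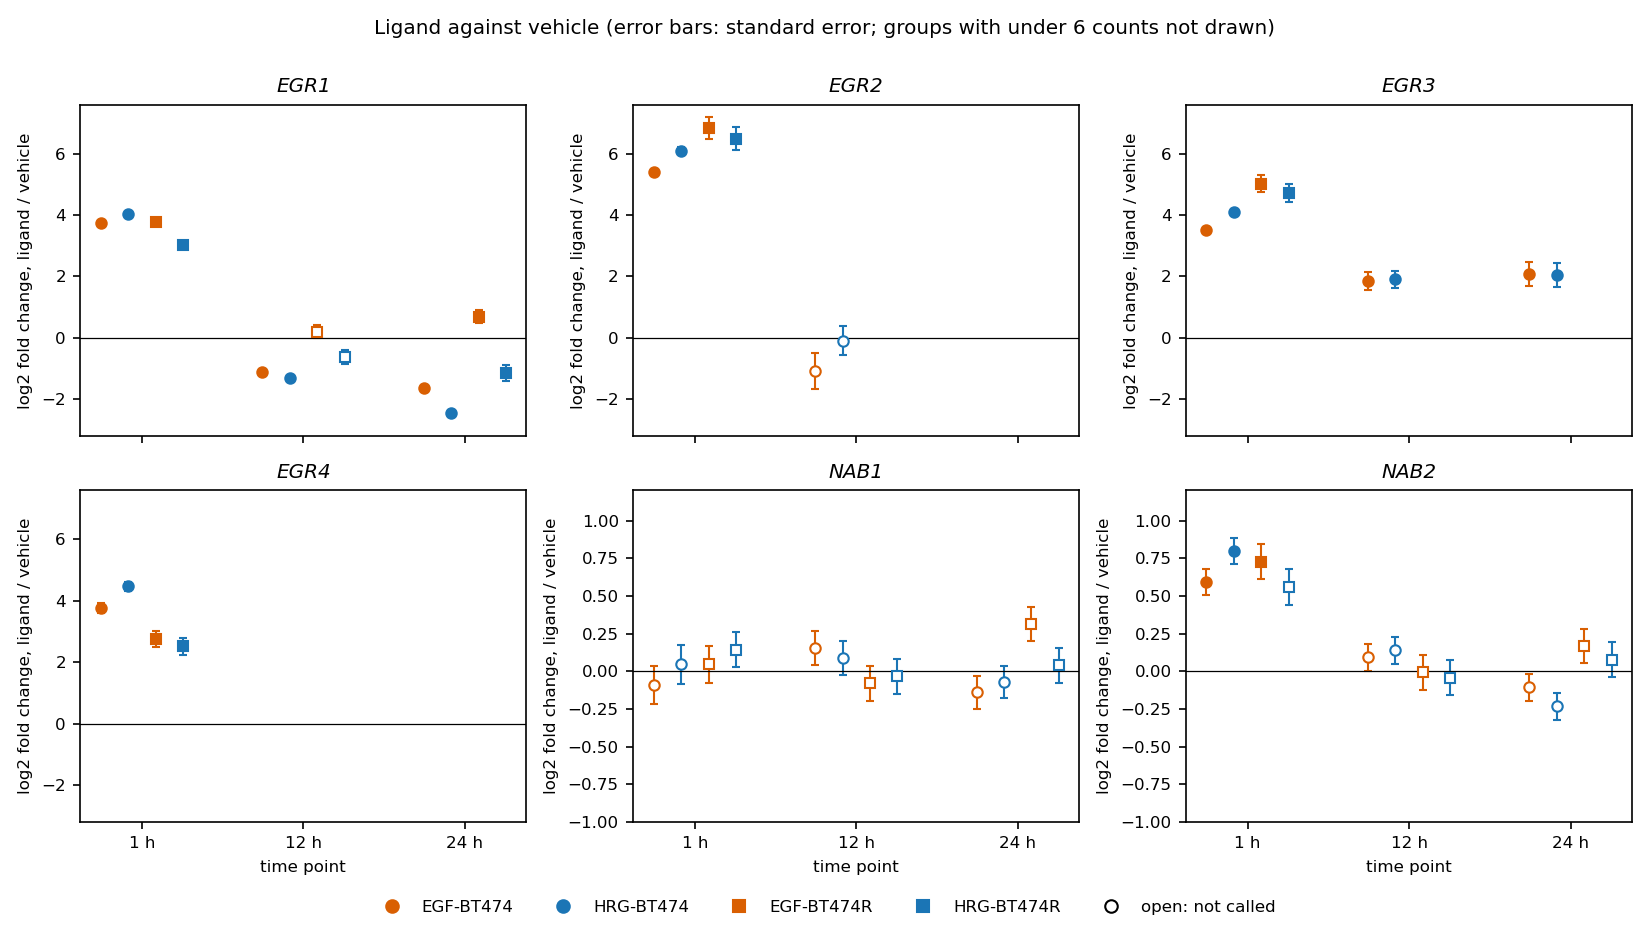
Log2 fold change of ligand against vehicle (y axis) by time point (x axis) for each gene, with standard errors, circles for BT474 and squares for BT474R, orange for EGF and blue for HRG; the y axes of NAB1 and NAB2 span a smaller range. Filled symbols passed the test, and groups with fewer than 6 counts over their 2 libraries are not drawn. EGR1 lies near 4 at 1 h and below 0 at 12 h and 24 h in BT474, where EGR3 stays near 2.

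EGR genes also changed between T0 and vehicle. The vehicle groups differ from T0 in fresh medium with water and in added time in starvation, which cannot be told apart. In BT474, EGR1 went from 12.4 and 15.2 CPM at T0 to 78.3 and 81.8 CPM in vehicle at 1 h (log2 fold change 2.56, SE 0.080, adjusted p = 1.78e-24). EGR2 went from 0.155 and 0.196 CPM to 3.07 and 2.56 CPM (3.99, SE 0.41, adjusted p = 3.9e-09), and EGR3 from 0.696 and 0.831 CPM to 24.86 and 20.005 CPM (4.89, SE 0.19, adjusted p = 1.23e-21). For EGR4, with 3 counts over the T0 libraries and 90 in vehicle, the ratio was 30.4 (95% interval 10.1 to 150, adjusted p = 3.81e-08). These 4 of 6 members were called, against 6.61% of all genes tested.

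EGR1 remained above T0 in BT474 vehicle at 12 h (1.29, SE 0.087, adjusted p = 1.21e-13) and 24 h (1.03, SE 0.091, adjusted p = 6.34e-11). It was the only member called at either time, 1 of 6 against 6.41% and 11.4%. With a ligand, by contrast, the EGR1 libraries at 12 h, at 11.8 to 16.1 CPM, spanned the T0 libraries, and at 24 h, at 4.51 to 9.32 CPM, lay below them. The ligand groups were not tested against T0.

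In BT474R, EGR1 went from 3.12 and 4.12 CPM at T0 to 22.7 and 18.3 CPM in vehicle at 1 h (2.47, SE 0.20, adjusted p = 8.47e-08). EGR3 went from 0 counts in both T0 libraries to 22 and 40, at least 7.03-fold higher by the same limit (adjusted p = 0.0106), and EGR4 from 3 counts over T0 to 70, a ratio of 15.9 (95% interval 5.21 to 78.8, adjusted p = 0.00169). These 3 of 6 were called, against 2.24%. The EGR3 call was lost without T0 library 1 (adjusted p = 0.0924), T0 library 2 (0.157) or vehicle library 2 (0.103), and the EGR4 call without T0 library 2 (0.0547).

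At 12 h, edgeR and DESeq2 called 0 of 6 members between vehicle and T0 in BT474R, with EGR1 at an unadjusted p under 0.05 (1 of 6), against edgeR's 1.13%. At 24 h the 2 corepressors rose and the EGR genes did not pass, 2 of 6 against 13.7%. NAB1 went from 11.8 and 9.03 CPM to 13.3 and 14.6 CPM (0.44, SE 0.12, adjusted p = 0.0173), and NAB2 from 13.7 and 14.2 CPM to 19.8 and 18.1 CPM (0.45, SE 0.12, adjusted p = 0.0172). The NAB1 call was lost without T0 library 2 (adjusted p = 0.296) or vehicle library 2 (0.112), and the NAB2 call without T0 library 1 (0.117), T0 library 2 (0.0767) or vehicle library 1 (0.134).

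**Figure D4:**
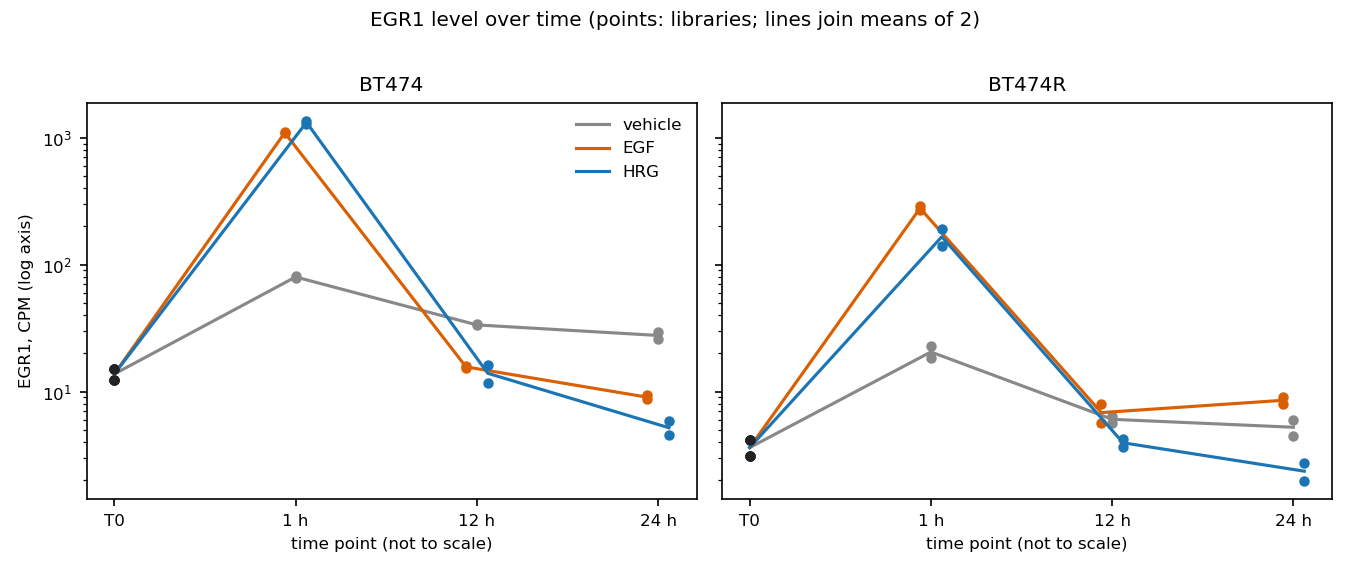
EGR1 level in CPM (y axis, log axis) at each time point from T0 to 24 h (x axis, not to scale) in BT474 and BT474R. Points are libraries and lines join the means of 2, grey for vehicle, orange for EGF and blue for HRG; in BT474 the vehicle line ends above the ligand lines, and in BT474R it ends between EGF and HRG.

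The lines already differed at T0. EGR1 was at 3.12 and 4.12 CPM in BT474R and at 12.4 and 15.2 CPM in BT474 (log2 difference -1.89, SE 0.21, adjusted p = 1.3e-09). EGR3 had 0 counts in both BT474R libraries and 18 and 17 in BT474, at least 4.79-fold lower by the same limit (adjusted p = 0.00313). NAB2 was lower in BT474R, at 13.7 and 14.2 CPM against 20.9 and 20.3 CPM (-0.56, SE 0.12, adjusted p = 0.000174).

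NAB1 was higher in BT474R at T0, at 11.8 and 9.03 CPM against 8.58 and 7.82 CPM (0.33, SE 0.12, adjusted p = 0.0265). That call was lost without BT474R library 1 (0.10, adjusted p = 0.615), BT474 library 1 (adjusted p = 0.0758) or BT474 library 2 (0.21), and with DESeq2 (0.0932). Thus 4 of 6 members were called between the lines, against 46.9% of all genes tested, so that a call between the lines was common. The summed level of the 4 fibroblast markers was also higher in BT474R, 170 to 295 CPM in its libraries against 75.1 to 105 CPM in BT474, nearly all of it COL1A1, and its part in these differences was not tested.

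The ligand effects were compared between the lines as an interaction. At 1 h the EGF effect on EGR1 differed by less than its SE of 0.19, although EGR1 reached 1097 CPM ± 13.1 (SD, n = 2) in BT474 and 279 CPM ± 13.3 (SD, n = 2) in BT474R, and the vehicle levels stood in about the same ratio. For EGF at 1 h, edgeR and DESeq2 called 0 of 6 members, with 3 at an unadjusted p under 0.05, against 0.138%. The EGR3 difference of 1.48 (SE 0.35, adjusted p = 0.0965) was called without EGF library 1 of BT474R (1.74, adjusted p = 0.00941).

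For HRG at 1 h, the effect was smaller in BT474R for EGR1, by -1.02 on the log2 scale (SE 0.15, adjusted p = 5.88e-05), and for EGR4, by -1.97 (SE 0.37, adjusted p = 0.00249), 2 of 6 against 0.544%. The EGR4 call was lost without vehicle library 2 of BT474R (-1.84, adjusted p = 0.198). EGR2 and EGR3 had differences of 0.39 (SE 0.67) and 0.58 (SE 0.37), NAB1 and NAB2 of 0.08 (SE 0.17) and -0.25 (SE 0.16), and none of these passed.

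At 12 h and 24 h the effect of EGF on EGR1, a lowering in BT474, differed between the lines. The EGF effect on EGR1 was higher in BT474R by 1.30 (SE 0.24, adjusted p = 0.000997) at 12 h and by 2.31 (SE 0.25, adjusted p = 3.8e-08) at 24 h, 1 of 6 members each against 1.96% and 4.01%. The level with EGF was not higher in BT474R. At 24 h EGR1 was at 9.03 CPM with EGF in BT474 and at 8.53 CPM in BT474R, with overlapping libraries. The vehicle levels there were 27.7 and 5.23 CPM, so the difference lay mostly in the vehicle. At 12 h EGR1 was at 15.7 and 6.83 CPM with EGF and at 33.5 and 6.04 CPM in vehicle. At 24 h NAB1 was called as well without EGF library 2 of BT474 (0.62, adjusted p = 0.0243), and EGR4 with DESeq2 (adjusted p = 0.0445). The call at 12 h was lost without EGF library 1 of BT474R (1.00, adjusted p = 0.118). The HRG effect on EGR1 was higher in BT474R by 0.68 (SE 0.26, adjusted p = 0.16) at 12 h, where edgeR and DESeq2 called 0 of 6 members and 1 had an unadjusted p under 0.05, against 4.07%. At 24 h it was higher by 1.27 (SE 0.34, adjusted p = 0.0278), 1 of 6 against 3.33%. That call was lost without HRG library 1 (1.09, adjusted p = 0.136) or vehicle library 2 (1.17, adjusted p = 0.0835) of BT474, and without HRG library 1 (1.01, adjusted p = 0.166) or vehicle library 2 (1.09, adjusted p = 0.0853) of BT474R.

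**Figure D5:**
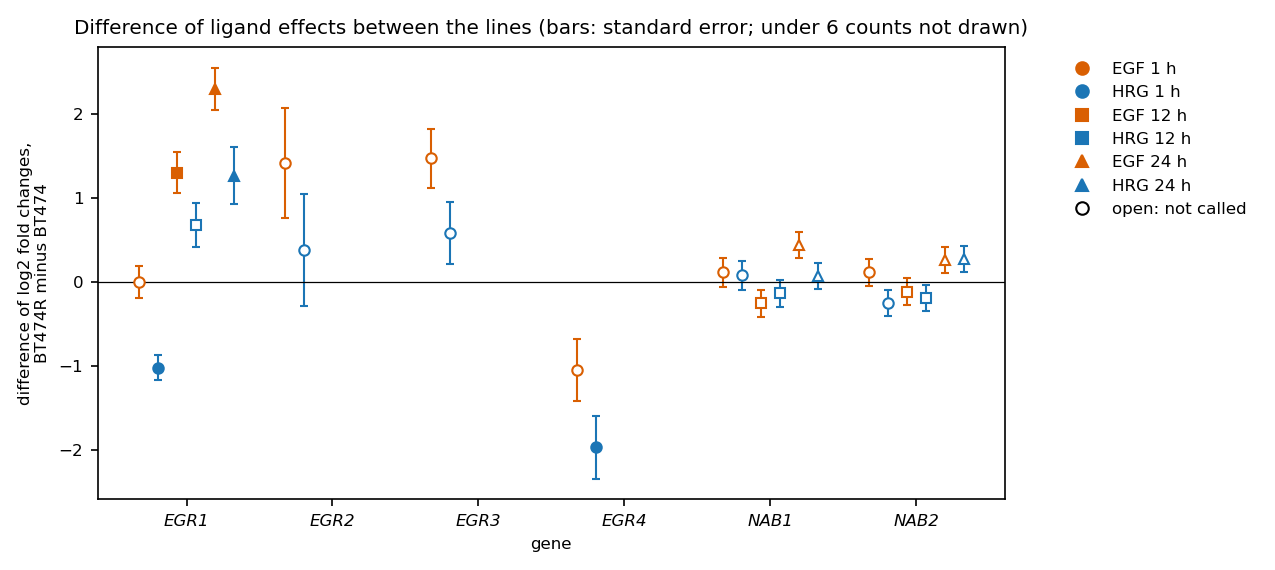
Difference of the ligand's log2 fold change, BT474R minus BT474 (y axis), for each gene (x axis), ligand and time point, with standard errors, circles for 1 h, squares for 12 h and triangles for 24 h, orange for EGF and blue for HRG. Filled symbols passed the test, and values with a group under 6 counts are not drawn; EGR1 goes from -1.02 for HRG at 1 h to 2.31 for EGF at 24 h.

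Genes around the EGR factors were described from 4 lists. In the list of SRF and its partners, 1 of 6 rose at 1 h with EGF in BT474, with HRG in BT474 and with EGF in BT474R. It was SRF itself in each, from 74.9 CPM in vehicle to 142 CPM with EGF (log2 fold change 0.90, SE 0.049, adjusted p = 3.08e-17) and 163 CPM with HRG (1.11, SE 0.049, adjusted p = 4.17e-20) in BT474, and from 68.6 to 89.5 CPM (0.38, SE 0.070, adjusted p = 0.00619) in BT474R. The medians of the list were between -0.01 and 0.05 in these comparisons. Of all genes tested, 1.65%, 2.16% and 0.416% were called higher in them, in that order. ELK3, a ternary complex factor described as a repressor at rest, rose at 24 h with EGF in BT474R, from 6.55 to 13.3 CPM (1.03, SE 0.12, adjusted p = 2.04e-06). There 3 of 6 rose (SRF, ELK3 and ELK4), against 9.95% of all genes tested, and 1 fell (MRTFB). The fall is a description only, since the share of all genes called lower there is not given. With HRG at 1 h in BT474R edgeR called 0 of 6, with 1 at an unadjusted p under 0.05 and 1 called by DESeq2.

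Of the 15 genes of the ERK cascade, all tested, 0 passed at 1 h in each of the 4 comparisons with edgeR. With unadjusted p under 0.05, the counts were 0, 2, 0 and 0 for EGF-BT474, HRG-BT474, EGF-BT474R and HRG-BT474R, and DESeq2 called 0 in each. At 12 h, 4 rose with EGF and 6 with HRG in BT474, where 2 also fell, ARAF and BRAF, and 2 and 1 rose in BT474R. Over all genes tested, 9.04% were called higher in EGF-BT474 and 13.3% higher and 12.5% lower in HRG-BT474, and 12% and 4.12% were called in BT474R, so that the counts in BT474R were near the background. RPS6KA2 and RPS6KA3 encode ribosomal S6 kinases, which act below ERK. RPS6KA2 went from 20.7 to 33.7 CPM with EGF at 12 h in BT474R (0.70, SE 0.075, adjusted p = 6.94e-07), and RPS6KA3 from 61.2 to 91.7 CPM with HRG at 12 h in BT474 (0.55, SE 0.054, adjusted p = 2.25e-10). HRAS, the RAS protein upstream of RAF, went from 11.4 to 18.2 CPM with HRG at 12 h in BT474 (0.66, SE 0.091, adjusted p = 3.93e-07).

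The list of cofactors held CHD3 and CHD4 of the NuRD complex, which NAB2 binds, the acetyltransferases CREBBP and EP300, HCFC1 and the related zinc finger gene WT1, of which 5 were tested. CHD3 fell by 0.21 on the log2 scale with HRG at 12 h in BT474 (SE 0.036, adjusted p = 1.97e-05), from 597 to 529 CPM, and was the only one of the 5 called there. Of all genes tested, 12.5% were called lower in that comparison. At 1 h edgeR and DESeq2 called 0 of 5 in each of the 4 comparisons, with 0 at an unadjusted p under 0.05. With EGF at 24 h in BT474R, 2 of 5 fell, CREBBP by 0.21 (SE 0.048, adjusted p = 0.00358) and CHD3 by 0.20 (SE 0.062, adjusted p = 0.0254). The share of all genes called lower there is not given here, so that this count is a description only.

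Of 16 genes described elsewhere as EGR targets, 15 were tested. At 1 h, 4 rose with each ligand in BT474 (list medians 0.42 and 0.07, against medians over all genes tested of 0.0013 and -0.0071), and 1 rose with EGF in BT474R. Of all genes tested, 1.65% and 2.16% were called higher with EGF and HRG in BT474, and 0.416% and 0.169% in BT474R. With HRG in BT474R edgeR and DESeq2 called 0, with 3 at an unadjusted p under 0.05. ATF3, a stress-induced transcription factor, went from 10.31 to 89.29 CPM with EGF in BT474 (3.10, SE 0.091, adjusted p = 5.13e-26), to 122 CPM with HRG (3.56, SE 0.090, adjusted p = 3.37e-28), and from 12.6 to 52.2 CPM with EGF in BT474R (2.04, SE 0.24, adjusted p = 2.15e-05). GDF15, a secreted stress protein, went from 13.9 to 56.8 CPM with EGF at 1 h in BT474 (2.01, SE 0.090, adjusted p = 8.86e-20). At 12 h in BT474, with EGR1 below its vehicle, 5 rose with each ligand (medians 0.32, 0.42), against 9.04% and 13.3% of all genes. In BT474R at 12 h, 6 rose with EGF and 2 with HRG (medians 0.52 and 0.22), against 12% and 4.12% called in either direction. At 24 h in BT474, 3 rose and 1 fell with EGF (all genes 9.71% and 6.65%). With HRG 3 rose and 2 fell (12.5% and 11.6%). With EGF at 24 h in BT474R, 8 of 15 rose (median 0.48, against -0.011 over all genes tested), and 9.95% of all were called higher. Among these was ICAM1, an adhesion molecule, from 1.21 to 7.66 CPM (2.64, SE 0.22, adjusted p = 1.75e-08), and F3, tissue factor, from 0.908 to 4.03 CPM (2.14, SE 0.24, adjusted p = 9.39e-07). With HRG at 24 h in BT474R 1 of 15 was called, the adhesion receptor CD44, named after its value was seen, which fell by 0.82 (SE 0.15, adjusted p = 0.00454). Of all genes tested, 0.889% were called lower in that comparison.

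The genes whose mean log2 CPM over the 20 groups followed each member most closely were found among 13891 genes with a mean of at least 1 CPM, and are given as a description, since the 2 lines and the 1 h peak are shared by all points. For EGR1 they were CSRNP1 (Pearson's r 0.97), PPP1R15A (0.96) and ADAMTSL4 (0.96), and for EGR2 they were NFKBIZ (0.98), IER2 (0.96) and EDN1 (0.95). For EGR3 they were ADAMTSL4 (0.96), TRIB1 (0.95) and NFKBIZ (0.95), and for EGR4 PPP1R15A (0.98), FOSB (0.98) and IER2 (0.97). NAB2 was followed by ZFP36L1 (0.94), ZNF529 (0.90) and RIPK2 (0.90), and NAB1 by LHX2 (0.96), ZNF395 (0.96) and GOLGA2P5 (0.96). Among the members, the EGR genes correlated with one another at 0.91 to 0.96, NAB2 with them at 0.42 to 0.63 and NAB1 at -0.74 to -0.59.

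In the order of the 20 group means, neighbouring groups overlapped in their libraries in 8 of 19 steps for EGR1, 14 for EGR2, 10 for EGR3, 14 for EGR4, 12 for NAB1 and 13 for NAB2. The first 8 groups for EGR1, from HRG at 1 h in BT474 down to vehicle at 1 h in BT474R, did not overlap their neighbours. For EGR2, EGR3 and EGR4 the HRG and EGF groups of BT474 at 1 h came first, apart from each other, and the EGF and HRG groups of BT474R at 1 h followed and overlapped. The highest NAB1 group was EGF at 24 h in BT474R, at 17.3 CPM, and the lowest EGF at 1 h in BT474, at 6.45 CPM. For NAB2 the highest was HRG at 1 h in BT474, at 38.4 CPM, and the lowest vehicle at 1 h in BT474R, at 11.7 CPM.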

How the data were processed

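RNA was measured in 40 libraries, 2 for each of 20 groups of line, treatment and time point, grouped by their labels. The authors deposited raw counts per gene name. Per the study's methods and the labels, reads were trimmed with Trim Galore 0.6.6, aligned to GRCh38.p13 with Rsubread and counted with featureCounts, and the annotation release, strand setting and treatment of reads with several matches are not given in the sources used here. Reads shared by overlapping genes could thus be assigned to either.

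Totals ran from 16794594 to 33387936 counts per library. Genes with at least 1 count in 50% of libraries were tested with edgeR 4.0.16 (R 4.3.3, limma 3.58.1): TMM scaling, quasi-likelihood F test and Benjamini-Hochberg adjusted p-values over every tested gene, called below 0.05. There was 1 fit per line, of 25146 genes in BT474 and 24287 in BT474R, and 1 fit of all 40 libraries, of 24641 genes, for comparisons between lines. All 6 members were tested in each. The steps were tested on simulated counts.

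The members, the 4 gene lists and the markers were chosen with earlier results of these data known. Named genes were the members, up to 4 called genes of each list by size of change, and for each member the 3 genes most like it by Pearson's r of log2 CPM (prior count 2). ARAF, BRAF and CD44 were named outside this rule. Alternatives were DESeq2 1.42.0, its size factors, other filters, other sets of libraries, a replicate block and leaving out each library. For the comparisons between lines, fits without a library used the trended dispersion of all 40. RefSeq's promoter table and GENCODE v44 gave sequences and exons, and figures were drawn with matplotlib.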

Additional observations from a re-analysis of the deposited data

Results flagged for a closer look

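A set of 6 results showed an effect of a ligand that differed between lines or time points by a test of the difference itself. The effect of HRG on EGR1 in BT474 differed between 24 h and 12 h by -1.15 on the log2 scale. At 1 h the effect of HRG differed between BT474R and BT474 by -1.02 for EGR1 and by -1.97 for EGR4. The effect of EGF on EGR1 differed between the lines by 1.30 at 12 h and by 2.31 at 24 h, and that of HRG by 1.27 at 24 h. EGR1 was thus involved in 5 of the 6. Between the lines, the calls for EGR4 with HRG at 1 h, EGR1 with EGF at 12 h and EGR1 with HRG at 24 h were lost without certain single libraries. That for EGR1 with HRG at 24 h was also lost in a fit of the compared libraries alone. Between the lines, the HRG effect on EGR1 was lower in BT474R at 1 h, and the called effects at 12 h and 24 h were higher. The EGR1 levels themselves were not higher in BT474R. Groups of 2 libraries were too small to test for single libraries that stand apart. The 2 libraries of HRG at 24 h in BT474R differed most, with a median chi-square over genes of 2.53. Counting noise alone gives 0.455, and the other groups had 0.617 to 1.48. The causes of the 6 results and of this spread were not tested.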

How the results depend on the processing

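Of 210 results for single genes, 58 were called and 39 of these stayed called under every alternative and without each library in turn, and no result changed its direction while called. The number of members called changed under the alternatives as follows, first where it moved by over 1.5 times or to or from 0, and the cause was not tested. Without a filter it rose from 0 to 1 for the EGF effect at 24 h minus 12 h in BT474, the EGF effect between lines at 1 h, the HRG effect between lines at 12 h, HRG-BT474R at 12 h, vehicle against T0 at 12 h in BT474R and HRG against EGF at 12 h in BT474R, from 1 to 2 for the EGF effect between lines at 24 h (with DESeq2 also 2), the HRG effect at 24 h minus 12 h in BT474 and vehicle against T0 at 24 h in BT474, and from 1 to 3 for HRG against EGF at 24 h in BT474R. In fits of the compared libraries alone it fell from 4 to 0 for HRG against EGF at 1 h in BT474 and from 1 to 0 for HRG against EGF at 1 h and 24 h in BT474R, the HRG effect between lines at 24 h and HRG-BT474R at 24 h, and rose from 0 to 1 for the EGF effect between lines at 1 h, the HRG effect between lines at 12 h and vehicle against T0 at 12 h in BT474R, and from 1 to 2 for vehicle against T0 at 24 h in BT474. In 1 fit of both lines HRG against EGF gave 1 in place of 4 at 1 h and 0 in place of 1 at 24 h in BT474, and 1 in place of 0 at 12 h in BT474R, and with DESeq2 it gave 0 in place of 1 at 1 h in BT474R. Smaller moves were 5 in place of 4 for HRG-BT474R at 1 h (NAB2 gained with DESeq2, 1 fit of both lines, no filter, the compared libraries alone and the block), 3 in place of 2 for EGF-BT474R at 24 h (NAB1 gained with 1 fit of both lines, DESeq2's size factors and filterByExpr, EGR3 without a filter), for HRG-BT474 at 24 h (NAB2 gained without a filter and with the block) and for vehicle against T0 at 24 h in BT474R (without a filter), and 3 in place of 4 between the lines at T0 (NAB1 lost with DESeq2, its size factors and no filter) and for HRG against EGF at 1 h in BT474 (EGR1 lost with DESeq2).

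Over all groups of a line the replicate numbers did not pair the libraries. Deviations from the group means of libraries with the same number had a median correlation of 0.022 over 45 pairs of groups in BT474, of which 6 were over 0.1, and of 0.00032 in BT474R, of which 10 were. At 24 h alone, all 3 pairs of BT474 groups were over 0.1 (0.134 to 0.263), as were 2 of 3 in BT474R (0.0175 to 0.385), a hint from the data that is not in the design. Similar values were also seen between lines and time points, such as 0.283 for HRG at 24 h in BT474 with HRG at 1 h in BT474R. They were thus not particular to groups of the same line and time point. With the replicate number as a block, the count was 1 in place of 0 for the EGF effect at 24 h minus 12 h in BT474 and for HRG against EGF at 12 h in BT474R, 2 in place of 1 for vehicle against T0 at 24 h in BT474, 3 in place of 2 for HRG-BT474 at 24 h and 5 in place of 4 for HRG-BT474R at 1 h, and it was the same in every other comparison tested with the block. Leaving out each library in turn gave 0 to 1 members for the EGF effect at 24 h minus 12 h in BT474, the EGF effect between lines at 1 h and 12 h, the HRG effect between lines at 24 h, EGF-BT474R and HRG-BT474R at 24 h, HRG against EGF in BT474 at 12 h and in BT474R at both 1 h and 12 h, and vehicle against T0 at 24 h in BT474R. It gave 1 to 2 for the EGF effect between lines at 24 h, the HRG effect at 24 h minus 12 h in BT474 and the HRG effect between lines at 1 h, and 1 to 3 for vehicle against T0 at 1 h in BT474R. At 12 h and 24 h EGR2 and EGR4 were near the limit of detection in both lines, as was EGR3 in BT474R. Changes of these genes there were not detectable at this depth unless large.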
